A study of Mus musculus with 15 samples.

Results

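The respiratory chain genes are the nuclear and mitochondrial genes of complexes I to V of oxidative phosphorylation, measured here as RNA in mouse hepatocytes. A gene was taken where its Ensembl identifier maps to a mouse symbol that starts with Nduf, Uqcr or Atp5 or with Cox and a digit from 4 to 8. Sdha, Sdhb, Sdhc, Sdhd and the 13 protein-coding genes of mitochondrial DNA (mtDNA) were taken by name. This gave 107 of the 56953 genes in the files, 94 nuclear and 13 mitochondrial, and 13 further rows annotated as pseudogenes or noncoding genes were left out. The rule used symbols and annotation and no measured value, but it was set with earlier results of these data known. Complex I had 44 nuclear members, complex II 4, complex III 8, complex IV 20 and complex V 18. Of the 94 nuclear members, 75 are subunits expressed in liver, and the others are 8 assembly factors of the Ndufaf series, 8 isoforms best known from other tissues, Cox7a2l, Atp5s and an Atp5o identifier without a count. The mtDNA genes are 7 of complex I, 1 of complex III, 3 of complex IV and 2 of complex V.

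The samples are 15 libraries of primary mouse hepatocytes, in 4 groups of 2 genotypes crossed with 2 treatments. They are wild-type (WT) mineral oil (n = 4), WT carbon tetrachloride, CCl4 (n = 3), ΔEGFR mineral oil (n = 4) and ΔEGFR CCl4 (n = 4). CCl4 is a liver toxin that hepatocytes activate, mineral oil is its usual carrier, and the series is titled as a study of the epidermal growth factor receptor (EGFR) pathway in the fibrotic liver. The labels used here give no strain, age, sex, dose, number of doses, promoter or form of the ΔEGFR allele, and nothing that says whether libraries of a group came from separate animals, so each p-value rests on the spread among libraries, which may be technical.

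Complexes I, III and IV pass electrons from NADH and succinate to oxygen and pump protons across the inner mitochondrial membrane. Complex II feeds in electrons from the citric acid cycle without pumping, and complex V, ATP synthase, uses the proton gradient to make ATP. Complex II is encoded in the nucleus alone, and each of the other complexes joins nuclear subunits, translated in the cytosol and imported, to subunits made inside the mitochondrion. Hepatocytes are rich in mitochondria and spend much of this ATP on gluconeogenesis and urea synthesis.

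Total expected counts ran from 51.7 to 155.4 M (megacounts) per library, in 2 ranges, 51.7 to 61.9 M in 6 libraries and 96.2 to 155.4 M in 9. All 12 hepatocyte markers passed the filter on low counts, with a summed level of 68500 to 145000 CPM (counts scaled to a common library size) per library. With CCl4 all 12 had a negative log2 fold change in both genotypes, with medians of −0.93 in WT and −1.02 in ΔEGFR. Of them, Cyp2e1, Cps1, Ass1 and Hnf4a passed the test described below in WT, and Cps1 and Ass1 in ΔEGFR. Markers of other cells moved with CCl4 too. The 19 macrophage markers summed to 187 to 2650 CPM in WT mineral oil, 3510 to 14200 in WT CCl4, 107 to 1730 in ΔEGFR mineral oil and 4500 to 11100 in ΔEGFR CCl4, and 6 of them rose in WT and 2 in ΔEGFR (Gpnmb and Trem2). In WT, 4 of 15 stellate cell markers (Col1a1, Col1a2, Col3a1 and Tagln) and 2 of 9 cholangiocyte markers (Krt19 and Spp1) rose. Spp1 is on the macrophage list too. In ΔEGFR no stellate cell or cholangiocyte marker was called. Of 6 red cell markers 1 fell in WT (Alas2, also in ΔEGFR). None of 15 endothelial, 11 T and NK cell, 7 B cell, 9 neutrophil or 2 muscle and brown fat markers was called. Of all genes 5.31% rose and 7.2% fell in WT, and 1.77% rose and 2.38% fell in ΔEGFR. A score over 84 markers of other cells (mean log2 CPM) was 4.46 in WT mineral oil replicate 1 and −0.10 to 2.43 in the other WT mineral oil libraries, against 3.52 to 3.90 in WT CCl4. It was −0.06 to 3.16 in ΔEGFR mineral oil and 3.37 to 4.14 in ΔEGFR CCl4. WT mineral oil replicate 1 and ΔEGFR mineral oil replicate 1 stand apart in the respiratory chain genes themselves, as the shares of counts below show, and results that rest on them are given with and without them.

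Within the nuclear genome, complexes differed in level in the same order in nearly all libraries. Levels between genes are compared in TPM, a relative transcript number that divides by transcript length. The mean TPM per nuclear subunit was higher in complex IV than in V in 14 of 15 libraries, and it was higher in V than in III, in III than in II and in II than in I in 15 of 15. In complex I it was 82.6, 121, 120 and 130 TPM in the WT mineral oil libraries and 118, 121 and 128 in WT CCl4. ΔEGFR mineral oil had 84.3, 147, 134 and 136 TPM and ΔEGFR CCl4 171, 132, 124 and 133. The 2 low values are those of replicate 1 of each mineral oil group, and in the remaining libraries the treatments overlap within each genotype. Complex II, where each of the 4 subunits is nuclear, had 165 ± 34.0 TPM per subunit in WT mineral oil (SD, n = 4), 158 ± 6.28 with CCl4 (n = 3), and in ΔEGFR 168 ± 47.4 with mineral oil (n = 4) and 174 ± 5.53 with CCl4 (n = 4).

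Complex III, which passes electrons from ubiquinol to cytochrome c, had 250 ± 43.9, 260 ± 8.81, 284 ± 65.7 and 302 ± 39.3 TPM per subunit in the same order of groups. Complex IV, cytochrome c oxidase, had 325 ± 55.3, 349 ± 8.62, 364 ± 81.2 and 397 ± 56.7. Complex V had 313 ± 56.2, 337 ± 12, 346 ± 80.9 and 382 ± 35.7. With all libraries the treatments of a genotype differed in each complex by less than the SD of the mineral oil group, which replicate 1 widens. Without replicate 1 of the mineral oil groups, complex II had 181 ± 14.6 TPM per subunit in WT mineral oil (SD, n = 3) against 158 with CCl4, and these groups do not overlap. In ΔEGFR it had 190 ± 21.3 (n = 3) against 174, a difference smaller than the mineral oil SD. Complex III then had 271 ± 5.62 (n = 3) against 260 in WT, and 317 ± 13.1 (n = 3) against 302 in ΔEGFR. In WT the difference exceeds the SD of either group. In ΔEGFR it exceeds the mineral oil SD but is smaller than the CCl4 SD of 39.3 (n = 4). Both differences have the opposite sign to those with all libraries, and the ranges overlap. Libraries were left out of the mineral oil groups only, after the data were seen, which narrows their SD. Complexes I, IV and V then differed by less than the mineral oil SD in both genotypes, by −6.07 to 1.22 TPM.

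**Figure D1:**
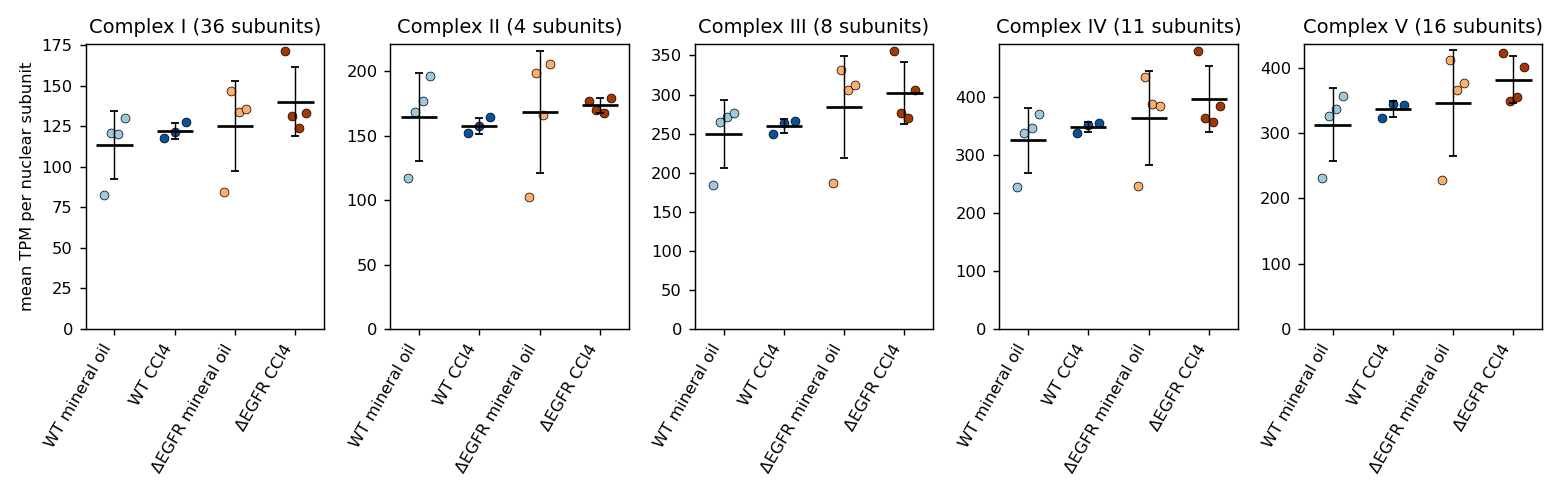
Mean TPM per nuclear subunit of complexes I to V (y axis, 1 panel per complex with its own scale) in the 4 groups (x axis). Points are libraries and bars are the group mean ± SD (n = 3 for WT CCl4, otherwise 4). The lowest point of each mineral oil group is its replicate 1 in every panel, at 82.6 and 84.3 TPM in complex I.

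Among the nuclear subunits, the highest of complex I was Ndufb9, an accessory subunit of the membrane arm, at a mean of 247 TPM over 15 libraries. The lowest was Ndufs1, a core subunit with iron-sulfur clusters, at 52.8 TPM. In complex III, Uqcrq had 597 TPM and the core protein Uqcrc2 107, and in complex IV Cox6a1 had 567 and Cox7b 132. Atp5b, the catalytic beta subunit of the F1 head of ATP synthase, was the highest nuclear member at 1060 TPM, and Atp5f1, a subunit of the peripheral stalk, the lowest nuclear subunit of its complex at 180. The Ndufaf assembly factors of complex I had lower levels than Ndufs1 and ranged from 5.29 TPM (Ndufaf5) to 27.8 (Ndufaf8), and Atp5s had 5.25. Cox7a2l, which joins complexes III and IV into supercomplexes, had 106 (82.5 to 213 over libraries), above complex I subunits such as Ndufs1.

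The levels of the subunits had similar ranks from library to library. Spearman's rho of the TPM of the 75 nuclear subunits was 0.927 to 0.994 over the 105 pairs of libraries, a description across genes that are not independent replicates. The log2 ratio of a subunit to the median of its complex in the same library had an SD over the 15 libraries with a median of 0.12 in complex I, 0.10 in II, 0.13 in III and 0.11 in both IV and V, and at most 0.22. Complex II shows what this leaves room for, since its 4 genes are close in level and change order between libraries. Sdhb, the iron-sulfur subunit, averaged 175 TPM, Sdha, the flavoprotein that oxidizes succinate, 172, and the membrane anchors Sdhd and Sdhc 160 and 159.

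The 13 mtDNA genes took a larger share of the counts than the 94 nuclear members in each library. Of the total count they held 10.6%, 3.10%, 3.33% and 3.31% in the WT mineral oil libraries, and 2.25%, 4.51% and 2.86% in those of WT CCl4. In ΔEGFR mineral oil they held 15.8%, 2.01%, 3.22% and 4.31%, and in ΔEGFR CCl4 2.89%, 2.09%, 5.24% and 5.05%. Replicate 1 of each mineral oil group is far above the rest, and without these 2 libraries the treatments overlap in both genotypes. As shares of TPM the CCl4 mean over the mineral oil mean was −0.53 on the log2 scale in WT and −0.50 in ΔEGFR, and 0.03 and 0.27 without the 2 libraries. The mitochondrial ribosomal RNAs moved with them, at 1.20% and 1.13% of the count in those 2 libraries and 0.144% to 0.392% in the other 13.

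The nuclear members held 0.605%, 0.784%, 0.785% and 0.815% of the count in WT mineral oil and 0.701%, 0.766% and 0.740% in WT CCl4. ΔEGFR mineral oil had 0.659%, 0.9265%, 0.8287% and 0.8822%, and ΔEGFR CCl4 0.994%, 0.745%, 0.794% and 0.875%. The ratio of mitochondrial to nuclear counts was 17.5 in WT mineral oil replicate 1 and 23.96 in ΔEGFR mineral oil replicate 1, and 2.17 to 6.60 in the others. Shares and TPM are relative within a library, so a high mtDNA share by itself lowers those of all other genes there. The 2 libraries differ on log2 CPM after TMM scaling (described below), with each nuclear subunit centred on its mean. The median was 0.19 in ΔEGFR mineral oil replicate 1, against 0.05 to 0.51 in the rest of its group. In WT mineral oil replicate 1 it was −0.38, against 0.17 to 0.35. The reason was not tested. In bulk samples, fewer cells of a type and less RNA per cell cannot be told apart.

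**Figure D2:**
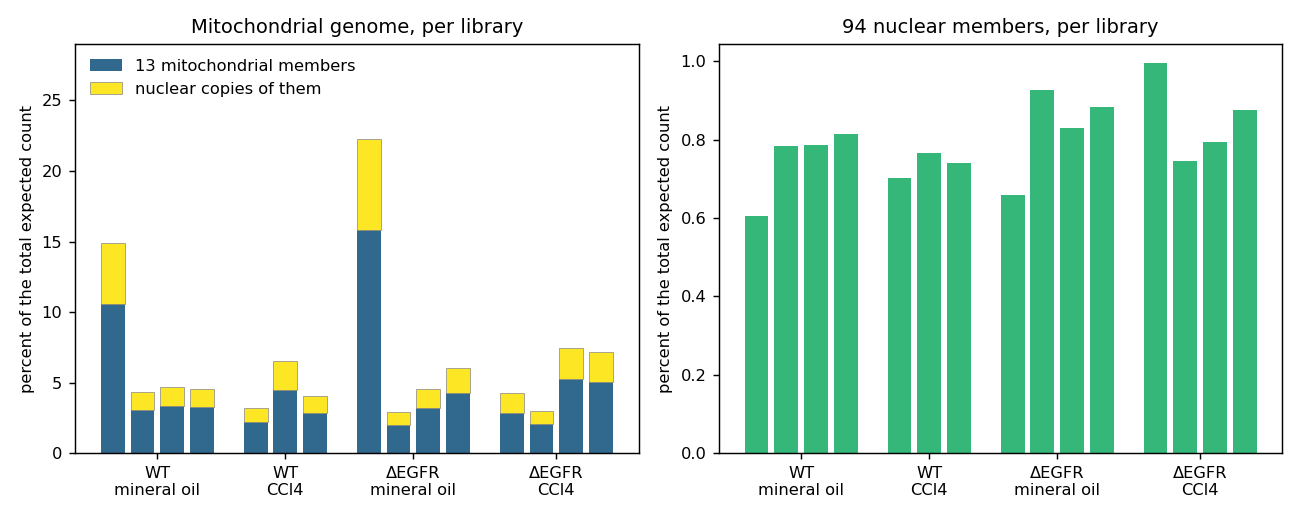
Percent of the total expected count per library (bars, in order of replicate within each group on the x axis) held by the 13 mtDNA genes with their nuclear copies stacked above (left) and by the 94 nuclear members (right). The 2 tall bars at left, at 10.6% and 15.8% without copies, are WT and ΔEGFR mineral oil replicate 1, which also have the 2 lowest bars at right.

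Levels of 5 mtDNA genes depend on how reads were shared with copies in the nuclear genome. Transcripts of the reference annotation were aligned, and a copy was counted where it matched a member at 95% identity or more over at least 150 bases and at least 50% of the copy. Of the reads assigned to mt-Atp6 and its copy Gm10925, which are identical, a median of 96.9% went to the copy (95.5% to 98.2% over libraries). The share was 95.4% for mt-Co2 and its copies, 94.7% for mt-Nd3 and Gm28438, 92.7% for mt-Co3 and Gm28437 and 35.1% for mt-Nd4l and Gm10222. mt-Co1 lost 8.63% to copies, and each of the other mtDNA genes under 1%. The starts of 2 pairs are shown as examples of how alike a gene and its copy are, as the first 60 bases of each transcript in the reference transcript file. Capitals mark the base that differs, written as T3C from the 5′ end of mt-Nd3, which was the only difference between that pair, and mt-Co2 and Gm28661 did not differ.
mt-Nd3: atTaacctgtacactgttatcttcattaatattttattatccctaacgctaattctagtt
Gm28438: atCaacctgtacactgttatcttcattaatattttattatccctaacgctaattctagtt
mt-Co2: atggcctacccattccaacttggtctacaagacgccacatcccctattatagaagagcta
Gm28661: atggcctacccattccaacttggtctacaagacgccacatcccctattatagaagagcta

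The order of the 13 genes is therefore given as the files list it and holds for the member rows only. The mean over 15 libraries was 31500 TPM for mt-Atp8, a small ATP synthase subunit whose gene overlaps mt-Atp6, so that reads of the overlap can be split between them. It was 17000 for mt-Co1, the catalytic subunit of complex IV, 9340 for mt-Cytb of complex III and 7540, 6850, 5980, 5970 and 3960 for mt-Nd2, mt-Nd4, mt-Nd4l, mt-Nd1 and mt-Nd5 of the proton-pumping arm of complex I. mt-Co3 had 1050, mt-Co2 807, mt-Nd6, which lies on the other strand, 781, mt-Atp6 490 and mt-Nd3 276. The top place of mt-Atp8 depends on the division by length, which weighs most on short genes. By TMM-scaled CPM, which does not divide by length, mt-Atp8 averaged 1390 and mt-Co1 18900. With the copies added, mt-Co2 had 29010, 9426, 10430 and 10190 TPM in WT mineral oil, and without them 1207, 386, 542 and 405. The mtDNA share with copies was 14.9%, 4.37%, 4.67% and 4.57% in WT mineral oil and 3.22%, 6.52% and 4.10% in WT CCl4. It was 22.3%, 2.92%, 4.53% and 6.07% in ΔEGFR mineral oil and 4.27%, 3%, 7.48% and 7.20% in ΔEGFR CCl4, so the same 2 libraries stand apart. Among nuclear members, Ndufb4 lost 12.8% of its reads to Ndufb4c, Cox7a2l 8.74% to Gm6969 (0.383% to 18.7%) and Atp5o 4.03% to Gm5436, and their values are less certain for it.

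CCl4 against mineral oil in WT asks what the toxin does to respiratory chain transcripts of normal hepatocytes. With TMM scaling, which sets the bulk of genes to no change, 98 of the 102 members tested had a negative log2 fold change and 4 fell at an adjusted p under 0.05 by edgeR's quasi-likelihood test, 3 of complex I and 1 of complex IV. No member rose. Over all 17975 genes 7.2% fell and 5.31% rose, so 4 of 102 is no larger a share than the background. All 75 nuclear subunits were negative, with a median of −0.41 (−0.79 to −0.12) against −0.03 for all genes, of which 51.9% were negative. The 12 hepatocyte markers were all negative too, with a lower median of −0.93. The median of the 89 nuclear members tested was −0.39 with TMM but 0.05 without a scaling factor and 0.13 with limma on log2(TPM + 1), where the median of all genes moved to 0.40 and 0.28. Relative to all genes the nuclear members were thus lower under each of these settings. Mean TMM factors were 0.867 and 1.17 in the WT mineral oil and CCl4 groups and 0.870 and 1.20 in those of ΔEGFR, so the factors differ with treatment.

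**Figure D3:**
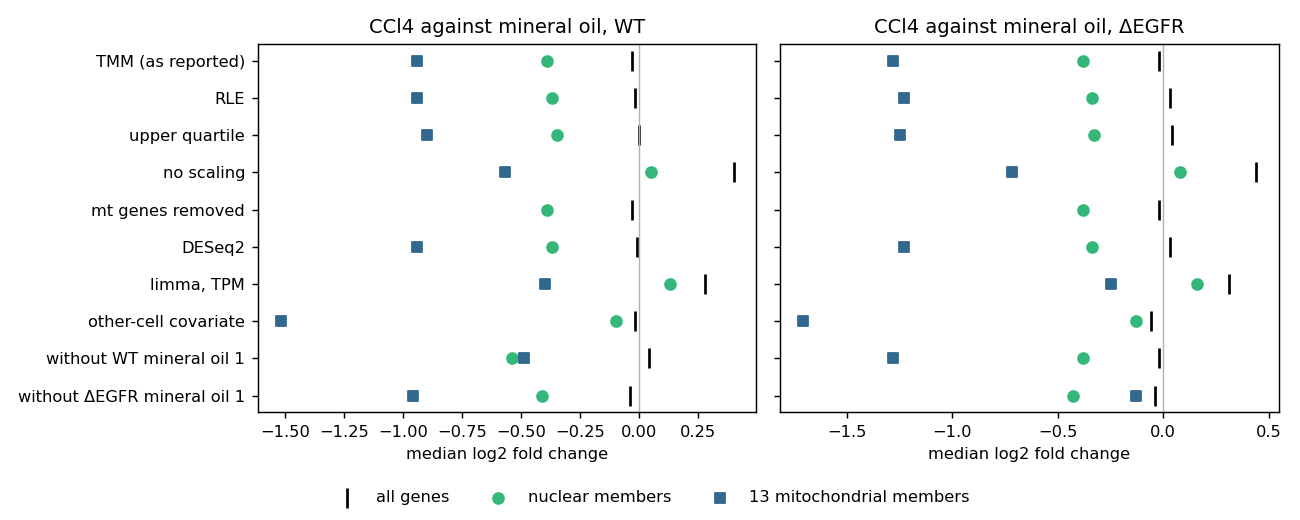
Median log2 fold change of CCl4 against mineral oil (x axis) of all genes tested, the nuclear members and the 13 mtDNA genes under 10 settings (y axis), in WT (left) and ΔEGFR (right). The nuclear median is −0.39 and −0.38 with TMM and turns positive without scaling and with limma on TPM, where the median of all genes moves right with it. In WT the mtDNA median is −0.49 without WT mineral oil replicate 1 and −1.52 with the other-cell covariate, and in ΔEGFR −0.13 without ΔEGFR mineral oil replicate 1.

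Ndufs3, a core subunit of the matrix arm of complex I, fell in WT. It measured 59.4, 103, 98.9 and 91.2 CPM in WT mineral oil and 57.5, 54.1 and 45.6 in WT CCl4, and the groups do not overlap. On the TPM scale they overlap through mineral oil replicate 1, at 89.8 TPM against 102.5 to 108 in WT CCl4. The log2 fold change was −0.75 ± 0.21 (SE, adjusted p = 0.0350, edgeR). ΔEGFR libraries had 80.3, 93.4, 67.7 and 110 CPM in mineral oil and 67.1, 49.9, 60.1 and 71.4 in CCl4, where the ranges overlap (−0.50 ± 0.19, adjusted p = 0.136, edgeR).

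Ndufb3, an accessory subunit of the membrane arm, fell from 20.1, 29.1, 30.9 and 24.6 CPM to 16.9, 18.3 and 16.4, without overlap (−0.61 ± 0.17, adjusted p = 0.0360, edgeR). On the TPM scale its WT groups overlap, at 42.0, 52.8, 59.7 and 54.0 in mineral oil and 44.0, 49.05 and 54.7 in CCl4. In ΔEGFR it had 26.4, 28.0, 23.3 and 33.0 CPM in mineral oil and 24.1, 16.6, 19.99 and 20.99 in CCl4 (−0.44 ± 0.16, adjusted p = 0.116, edgeR). Ndufb5 of the same arm fell from 34.9, 58.8, 57.0 and 49.2 CPM to 35, 32.8 and 27.9 (−0.65 ± 0.19, adjusted p = 0.0422, edgeR). Its WT groups overlap through mineral oil replicate 1 and are otherwise apart. In ΔEGFR its groups do not overlap, at 47.1, 51.6, 41.9 and 63.3 CPM in mineral oil and 37.9, 29.1, 33.2 and 37.9 in CCl4, but the change missed the threshold (−0.56 ± 0.17, adjusted p = 0.0815, edgeR).

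Cox7a2, the liver form of a complex IV subunit, fell from 59.0, 87.8, 82.6 and 76.6 CPM in WT mineral oil to 52.7, 50.3 and 43.5 in WT CCl4, without overlap (−0.65 ± 0.19, adjusted p = 0.0384, edgeR). The ΔEGFR values were 86.9, 100.1, 65.9 and 79.98 CPM in mineral oil and 81.7, 51.5, 67.5 and 70.8 in CCl4, which overlap (−0.29 ± 0.17, adjusted p = 0.295, edgeR). These 4 calls are sensitive to the choice of libraries and settings. Of 27 alternatives, Ndufs3 lost its call in 12, Ndufb3 in 14, Cox7a2 in 15 and Ndufb5 in 17, among them leaving out WT mineral oil replicate 2, 3 or 4 or any 1 of the WT CCl4 libraries. Adjusted p over the alternatives in which they lost it ran up to 0.494, 0.816, 0.721 and 0.808, with limma on TPM.

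**Figure D4:**
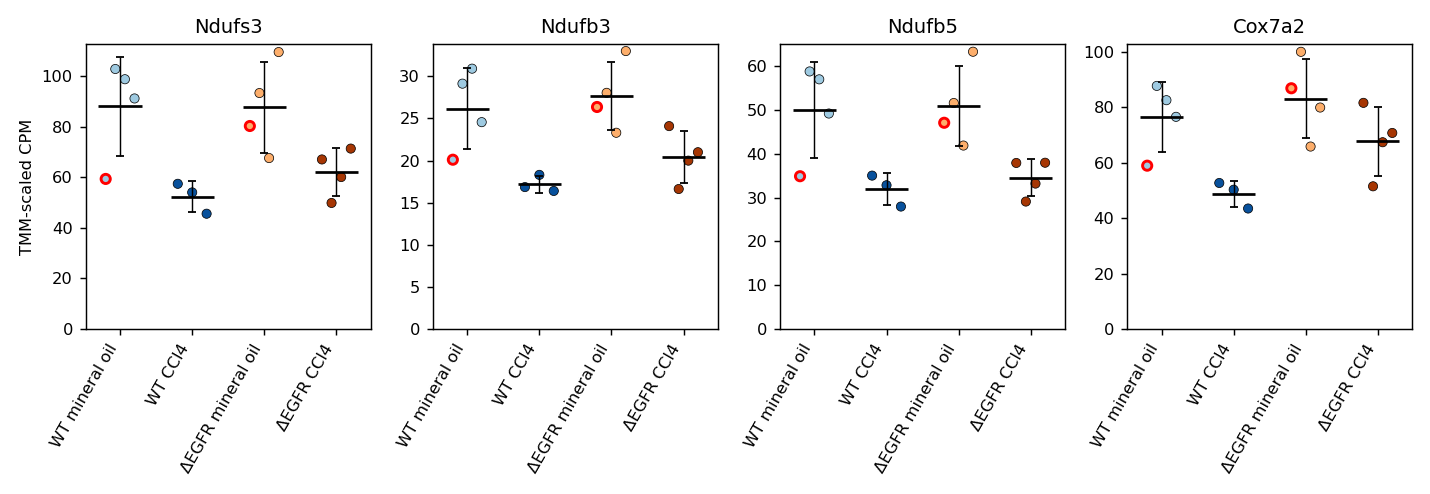
TMM-scaled CPM of Ndufs3, Ndufb3, Ndufb5 and Cox7a2 (y axes from 0) in the 4 groups. Points are libraries, bars are the group mean ± SD (n = 3 for WT CCl4, otherwise 4), and red outlines mark the 2 libraries with the highest mtDNA share. In each panel the outlined WT mineral oil library is the lowest of its group, 59.4 CPM in Ndufs3, next to the WT CCl4 libraries.

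No gene of complex II was called, but Sdha had the lowest fold change of the 75 nuclear subunits in both genotypes with TMM. It measured 255, 434, 449 and 463 CPM in WT mineral oil and 281, 221 and 191 in WT CCl4, and its groups overlap through mineral oil replicate 1 (−0.79 ± 0.26, adjusted p = 0.0581, edgeR). Sdhb had 93.7, 169, 160 and 159 CPM in mineral oil and 87.8, 93.5 and 84.1 in CCl4, with a gap of less than 1 CPM (−0.72 ± 0.22, adjusted p = 0.0523, edgeR). In ΔEGFR, Sdha had 331, 364, 327 and 551 CPM in mineral oil and 212, 215, 240 and 306 in CCl4, without overlap (−0.69 ± 0.23, adjusted p = 0.101, edgeR). Sdhb had 125, 153, 114 and 200 CPM in mineral oil and 112, 86.8, 103 and 118 in CCl4, which overlap (−0.50 ± 0.20, adjusted p = 0.157, edgeR). With DESeq2 both were called in WT (adjusted p = 0.0195 and 0.0179) and Sdha in ΔEGFR (adjusted p = 0.0487). The membrane anchors had values nearer to 0, −0.39 ± 0.22 and −0.42 ± 0.20 for Sdhc and −0.38 ± 0.21 and −0.31 ± 0.19 for Sdhd, in WT and ΔEGFR, with TMM. Without scaling those of Sdhc were 0.06 and 0.04 and those of Sdhd 0.07 and 0.15.

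The other complexes gave medians close to each other with TMM, all of which are below the all-gene median. In WT the medians were −0.39 for the 36 nuclear subunits of complex I, −0.55 for the 4 of II, −0.49 for the 8 of III, −0.41 for the 11 of IV and −0.42 for the 16 of V. In ΔEGFR they were −0.37, −0.46, −0.47, −0.38 and −0.40. The core subunits of complex I, conserved from bacteria, had −0.48 in WT and −0.38 in ΔEGFR and its other nuclear subunits −0.37 and −0.35. The F1 subunits of ATP synthase had −0.49 in both genotypes and the rest of its nuclear subunits −0.37 and −0.40. The Ndufaf factors had −0.31 and −0.33. No test compared these groups of subunits.

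In complex III, Uqcrc1, a core protein, had 140, 261, 259 and 258 CPM in WT mineral oil and 166, 148 and 115 in WT CCl4 (−0.68 ± 0.23, adjusted p = 0.0681, edgeR). Uqcr11, a small subunit, had 60.1, 101, 105 and 89.0 against 61.6, 61.9 and 50.3 CPM (−0.62 ± 0.19, adjusted p = 0.0537, edgeR). In both, mineral oil replicate 1 lies among the CCl4 libraries and the other 3 lie above all of them. The F1 subunits Atp5a1 and Atp5c1 had −0.65 ± 0.23 (adjusted p = 0.0859, edgeR) and −0.60 ± 0.19 (adjusted p = 0.0604, edgeR). Atp5b, the most abundant nuclear member, had 670, 1070, 1070 and 1072 CPM in WT mineral oil and 771, 794 and 598 in WT CCl4 (−0.43 ± 0.23, adjusted p = 0.228, edgeR). Values nearest to 0 among the subunits included those of Atp5g2, a c-ring subunit (−0.12 in WT and −0.06 in ΔEGFR), Atp5e (−0.16 and −0.34), Uqcr10 (−0.19 and −0.15) and Ndufa1 (−0.19 and −0.27).

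In ΔEGFR, CCl4 gave similar nuclear medians and no called member. Of 102 members 101 were negative with TMM and the smallest adjusted p was 0.0815 (edgeR), while 2.38% of all genes fell and 1.77% rose. At an unadjusted p under 0.05 there were 43 members in ΔEGFR and 37 in WT, beside 4447 and 5187 of all genes. The median of the nuclear subunits was −0.39 (−0.69 to −0.06) against −0.02 for all genes, of which 51.3% were negative. That of the 12 hepatocyte markers, all negative, was −1.02. The nuclear members' median of −0.38 was 0.08 without scaling and 0.16 with limma on TPM, with all-gene medians of 0.44 and 0.31. DESeq2 called 9 members lower in ΔEGFR and 16 in WT, with 6.19% and 11.2% of all genes lower. Over the 75 nuclear subunits the fold changes in WT and in ΔEGFR, which share no library, had a Pearson's r of 0.80 and a Spearman's rho of 0.80, a description across genes. Mean TPM and fold change had a Spearman's rho of 0.08 in WT and 0.01 in ΔEGFR.

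Some members did not overlap between treatments on TMM-scaled CPM. In WT, 14 of 102 members were lower in every CCl4 library than in every mineral oil library, 10 of them among the 75 nuclear subunits, beside 11.9% of all genes. In ΔEGFR it was 17 members, 14 of them nuclear subunits, beside 9.32%. The median log2 CPM of the nuclear subunits, each centred on its mean over libraries, was −0.38, 0.35, 0.26 and 0.17 in WT mineral oil and −0.24, −0.21 and −0.47 in WT CCl4. It was 0.19, 0.32, 0.05 and 0.51 in ΔEGFR mineral oil and 0.05, −0.46, −0.19 and 0.09 in ΔEGFR CCl4. WT mineral oil replicate 1 is the only mineral oil library below 0. Among the lower-depth WT libraries, 3 of mineral oil and 2 of CCl4, the difference was −0.48, and among the higher-depth ones, 1 of each, −0.08. In ΔEGFR the higher-depth libraries, 4 and 3, differed by −0.37, and no mineral oil library had lower depth.

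Without WT mineral oil replicate 1, which also has the highest score of other-cell markers, more members passed the test. In WT 50 of 102 members then fell and 1 rose, beside 14.2% and 14.5% of all genes. This is the highest count of members called among the 15 fits with 1 library left out, which gave 0 to 51. The nuclear subunits of the library left out are the lowest in mineral oil, at a median centred log2 CPM of −0.38. Its omission therefore raises their mineral oil mean. The 50 were 24 of 36 nuclear subunits of complex I, 2 of 4 of II, 6 of 8 of III, 8 of 11 of IV, 9 of 16 of V and 1 Ndufaf factor (Ndufaf1), and none of the 13 mtDNA genes. Ndufs3 then had −0.90 ± 0.18 (adjusted p = 0.00636, edgeR), Uqcr11 −0.76 (adjusted p = 0.00731), Uqcrc1 −0.86 (adjusted p = 0.00753), Sdhb −0.88 (adjusted p = 0.00823) and Sdha −0.96 (adjusted p = 0.0116). On TMM-scaled CPM the WT groups then did not overlap in 81 members, 71 of them nuclear subunits, beside 23.5% of all genes. On the TPM scale the same libraries had 124 TPM per nuclear subunit of complex I in mineral oil and 122 in CCl4. Complex II had 181 and 158, III 271 and 260, IV 352 and 349 and V 340 and 337. In ΔEGFR 14 members fell in the fit without WT mineral oil replicate 1, 13 of them nuclear subunits, beside 6.48% of all genes. That library takes no part in the ΔEGFR comparison, and the ΔEGFR median of the nuclear subunits was −0.39 with and without it. All groups share the estimate of the spread in a fit. With the other-cell score as a covariate and all libraries, no member was called and the nuclear medians were −0.10 in WT and −0.13 in ΔEGFR. The score itself differs with treatment, at −0.06 to 3.16 in ΔEGFR mineral oil and 3.37 to 4.14 in ΔEGFR CCl4. In WT it is also higher in every CCl4 library than in mineral oil, but for mineral oil replicate 1. The fit therefore cannot separate other cells from treatment, and the part of other cells in the nuclear difference was not tested.

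The 8 isoforms of other tissues were low next to their liver partners. Cox6a2, the heart and muscle form of the subunit that Cox6a1 provides in liver at 567 TPM, measured 1.12, 0, 0 and 0.43 TPM in WT mineral oil and 1.29, 2.34 and 3.89 in WT CCl4. It had 0.15, 0.23, 1.16 and 0.03 TPM in ΔEGFR mineral oil and 5.83, 3.06, 2.38 and 1.78 in ΔEGFR CCl4. By TMM-scaled CPM its groups did not overlap in ΔEGFR and overlapped in WT, and neither change passed the test (2.11 ± 1.13, adjusted p = 0.237, and 2.64 ± 1.09, adjusted p = 0.157, edgeR). It was the 1 member higher in every ΔEGFR CCl4 library, beside 12.3% of all genes. Without WT mineral oil replicate 1 it rose in WT (3.61 ± 1.21, adjusted p = 0.0418, edgeR). Limma on log2(TPM + 1) called it higher in WT (1.34 ± 0.37, adjusted p = 0.0266) and in ΔEGFR (1.59 ± 0.34, adjusted p = 0.0169). Of 9 muscle and brown fat markers 7 did not pass the filter. The 9 summed to 0.275 to 0.612 CPM in WT mineral oil and 0.611 to 0.732 in WT CCl4. In ΔEGFR they summed to 0.328 to 0.555 CPM in mineral oil and 0.512 to 1.01 in CCl4. The 2 tested had log2 fold changes of −0.08 and 2.28 in WT and −0.22 and 2.12 in ΔEGFR, and none was called.

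Cox6b2, the testis form beside Cox6b1 at 418 TPM, varied between the libraries of each group. It had 0.99, 0.98, 13.03 and 2.47 TPM in WT mineral oil and 1.49, 24.3 and 2.84 in WT CCl4 (0.71 ± 1.24, adjusted p = 0.741, edgeR). In ΔEGFR it had 1.66, 27.4, 6.89 and 15.1 TPM in mineral oil and 2.53, 1.96, 20.98 and 6.82 in CCl4 (−1.04 ± 1.16, adjusted p = 0.608, edgeR). High values occur in all 4 groups, which overlap. Cox7a1 had 1.08 to 4.47 TPM over libraries beside Cox7a2 at 220, and Ndufa4l2, known as a hypoxia-induced form, 1.02 to 3.68 beside Ndufa4 at 413. Cox4i2 had at most 0.26 TPM and Cox8b 0.11, and Cox7b2 and Cox8c were listed at 0 in all libraries.

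With all libraries the mtDNA genes had lower median fold changes than the nuclear members, an order that turned without replicate 1 of the mineral oil group. They varied more between libraries, and none was called by edgeR. DESeq2 called mt-Co3 lower in ΔEGFR (−1.93 ± 0.71, adjusted p = 0.0479). With TMM all 13 were negative in both genotypes, with a median of −0.94 in WT (−1.31 to −0.77, smallest adjusted p 0.283, edgeR) and −1.28 in ΔEGFR (−1.97 to −0.75, smallest adjusted p 0.131, edgeR). Without WT mineral oil replicate 1 the WT median was −0.49 beside −0.54 for the nuclear members. Without ΔEGFR mineral oil replicate 1 the ΔEGFR median was −0.13 beside −0.43, and mt-Nd1 (0.02), mt-Nd3 (0.16) and mt-Nd6 (0.09) turned positive. The sign of these genes in ΔEGFR thus rests on that library.

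mt-Co1 shows how the groups lie. It had 35400, 11390, 12000 and 14050 TPM in WT mineral oil and 9172, 16080 and 11760 in WT CCl4. In ΔEGFR it had 48330, 7747, 12810 and 16720 TPM in mineral oil and 11140, 9048, 20620 and 19360 in CCl4. On the TPM scale the groups overlap in both genotypes, and on TMM-scaled CPM the 4 WT mineral oil values, 38650, 14370, 14210 and 14690, lie above the CCl4 values, 8065, 13740 and 8085 (−1.04 in WT and −1.25 in ΔEGFR). mt-Nd5 was the other mtDNA gene without overlap in WT on that scale (−1.24), at 12040, 4285, 5059 and 3989 CPM against 2028, 3906 and 2147.

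mt-Nd6, the only protein gene of its strand, had 1760, 474, 564 and 568 TPM in WT mineral oil and 422, 884 and 785 in WT CCl4. In ΔEGFR it had 1538, 336, 501 and 791 TPM in mineral oil and 660, 455, 1053 and 931 in CCl4. It is high in the same 2 libraries as the genes of the other strand, and its fold changes were −0.77 in WT and −0.75 in ΔEGFR. For the remaining genes of complex I the values in WT and ΔEGFR were −0.78 and −1.14 (mt-Nd1), −1.15 and −1.50 (mt-Nd2), −0.88 and −1.17 (mt-Nd3), −1.01 and −1.29 (mt-Nd4) and −0.91 and −1.28 (mt-Nd4l), and mt-Nd5 had −1.30 in ΔEGFR. mt-Cytb had −0.94 and −1.16, mt-Co2 −0.79 and −1.87, mt-Co3 −0.77 and −1.97, mt-Atp6 −1.31 and −1.32 and mt-Atp8 −1.09 and −1.21. Centred log2 CPM had a median over the 13 genes of 1.44, 0.04, 0.08 and −0.05 in WT libraries with mineral oil and −0.85, 0.12 and −0.86 in those with CCl4. In ΔEGFR it was 2.42, −0.85, −0.32 and 0.51 with mineral oil and −0.76, −1.31, 0.27 and 0.33 with CCl4. The spread within each group is wider than that of the nuclear subunits.

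ΔEGFR against WT asks whether the genotype sets respiratory chain levels with and without the toxin. No member was called in mineral oil, in CCl4 or in the interaction of genotype and treatment, where 0.0% of all genes were called in either direction by edgeR. At an unadjusted p under 0.05 there were 2, 2 and 0 members, beside 1197, 411 and 568 of all genes, and DESeq2 called 0 members in each. The median of the members was 0.18 in mineral oil and 0.21 in CCl4 with TMM, against −0.01 for all genes in both, and 8 and 3 of the 102 were negative. The interaction had a median of 0.02 and a smallest adjusted p of 1. Complex I, for instance, had 113 ± 21 TPM per nuclear subunit in WT mineral oil (SD, n = 4) and 125 ± 27.8 in ΔEGFR mineral oil (n = 4), a difference smaller than either SD. Without replicate 1 of each group it had 124 ± 5.26 and 139 ± 6.87 (n = 3 each), which differ by more than either SD and do not overlap. These fits do not show that the genotypes are alike.

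Genes that work beside the chain are given by list. Cyc1, cytochrome c1 of complex III, which the symbol rule does not take, had −0.58 ± 0.21 in WT (adjusted p = 0.0872, edgeR) and −0.54 in ΔEGFR (adjusted p = 0.117), and Cycs, cytochrome c, −0.06 and −0.15 (adjusted p = 0.847 and 0.567). Their counts are to be read against all genes, of which 7.2% fell and 5.31% rose in WT and 2.38% fell and 1.77% rose in ΔEGFR. Of 46 assembly factors outside the members, 3 fell in WT and 1 in ΔEGFR, near these shares. Ttc19, needed for complex III, fell in both (−0.66, adjusted p = 0.0208, and −0.63, adjusted p = 0.0374, edgeR), and Dmac2 (−1.21, adjusted p = 0.0174) and Nubpl, an iron-sulfur factor of complex I (−0.86, adjusted p = 0.0277), fell in WT. The list medians were −0.20 and −0.28 with TMM. None of 13 genes of coenzyme Q synthesis was called (−0.31 and −0.24).

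Of 18 citric acid cycle genes 3 fell in WT and 1 in ΔEGFR, with medians of −0.41 and −0.37. Fh1, fumarate hydratase, which acts on the product of complex II, fell in both (−1.06, adjusted p = 0.0174, and −1.09, adjusted p = 0.0250, edgeR). Idh3b (−0.64, adjusted p = 0.0416) and Pdhb (−0.61, adjusted p = 0.0470) fell in WT. Of 44 genes that copy, transcribe or process mtDNA 4 fell in WT and 1 in ΔEGFR, beside 7.2% and 2.38% of all genes, with medians of −0.17 and −0.28. Hsd17b10, a subunit of mitochondrial RNase P, fell in both (−1.14, adjusted p = 0.0120, and −0.86, adjusted p = 0.0454, edgeR), and Fastkd1 (−1.14, adjusted p = 0.0159), Polg, the mtDNA polymerase (−0.39, adjusted p = 0.0379), and its partner Polg2 (−1.13, adjusted p = 0.0411) fell in WT. Of 78 mitochondrial ribosomal proteins 1 rose in WT, Mrps6 (0.62, adjusted p = 0.0202, edgeR), and the medians were −0.04 and −0.17.

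Among 24 regulators of mitochondrial biogenesis, 4 fell and 1 rose in WT, beside 7.2% and 5.31% of all genes, and none was called in ΔEGFR, with medians of −0.31 and −0.10. Sirt3, the mitochondrial deacetylase (−1.34, adjusted p = 0.0132, edgeR), and Esrrg, an estrogen-related receptor (−5.04, adjusted p = 0.0442), fell, as did Ppara (−1.25, adjusted p = 0.0479) and Yy1 (−0.38, adjusted p = 0.0490), and Ppard rose (1.65, adjusted p = 0.0153). Ppargc1a, the coactivator PGC-1alpha, had −1.19 ± 0.44 in WT (adjusted p = 0.0899, edgeR) and −0.41 in ΔEGFR (adjusted p = 0.541). Tfam, which packages mtDNA, had −0.16 and −0.24 (adjusted p = 0.535 and 0.322, edgeR), and Esrra −0.34 and 0.03 (adjusted p = 0.442 and 0.953). Of 19 genes of mitochondrial mass and dynamics, 2 fell and 2 rose in WT and 1 fell in ΔEGFR, with medians of −0.19 in both. Mfn2, of outer membrane fusion, fell in both (−1.05, adjusted p = 0.00638, and −0.76, adjusted p = 0.0330, edgeR), and in WT Mfn1 fell (−0.73, adjusted p = 0.0107) and the ATP carrier Slc25a4 (2.29, adjusted p = 0.0470) and the porin Vdac2 (0.38, adjusted p = 0.0482) rose. Of 14 hypoxia and glycolysis genes 2 fell and 1 rose in WT and 1 rose in ΔEGFR, with medians of 0.73 and 0.44. Car9 rose in both (3.07, adjusted p = 0.0185, and 2.66, adjusted p = 0.0463, edgeR), and Bnip3 (−1.67, adjusted p = 0.0209) and Pdk1 (−1.24, adjusted p = 0.0450) fell in WT.

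Nuclear respiratory chain genes are known for short promoters with sites of the factors NRF1, GABP (an ETS factor), ERR and YY1. Windows of 300 bases, 250 before and 50 after the start, were taken from RefSeq on GRCm38.p6 for 75 nuclear members, 63 of them subunits, and for 27025 genes in all. The letters searched on either strand were GCGCANGCG for NRF1, CCGGAAGT for ETS, TCAAGGTCA for ERR and AAGATGGCG for YY1, and no letters of 1 motif were barred from overlapping another. NRF1 letters were in 20 of the 63 subunits (31.7%) and in 7.0% of all genes. YY1 letters were in 7 (11.1%) and 1.6%, ETS letters in 5 (7.9%) and 4.3%, and ERR letters in 2 (3.2%) and 0.5%. Some letters of the 4 motifs were in 29 subunits (46.0%) and in 12.3% of all genes. Of 69 mitochondrial ribosomal protein genes 23.2% held NRF1 letters, 17.4% ETS and 11.6% YY1. With CCl4 in WT the 20 subunits with NRF1 letters had a median of −0.38 and the 43 without −0.42, and in ΔEGFR both had −0.38, with TMM.

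The windows of 3 members named above are shown for the motifs they hold, in capitals, 5′ to 3′ on the minus strand that carries the gene. Among the members called in WT with all libraries, Ndufs3 alone held any of the letters, and Ndufb3, Ndufb5 and Cox7a2 held none. Ndufs3 at chr2:90904672-90904971 holds the ETS letters as their reverse complement. Uqcr11 at chr10:80406772-80407071 holds ETS letters and the reverse complement of the NRF1 letters, and Sdhd at chr9:50603800-50604099 holds NRF1 letters and the reverse complement of the ERR letters. A match describes the window and says nothing of binding.
Ndufs3: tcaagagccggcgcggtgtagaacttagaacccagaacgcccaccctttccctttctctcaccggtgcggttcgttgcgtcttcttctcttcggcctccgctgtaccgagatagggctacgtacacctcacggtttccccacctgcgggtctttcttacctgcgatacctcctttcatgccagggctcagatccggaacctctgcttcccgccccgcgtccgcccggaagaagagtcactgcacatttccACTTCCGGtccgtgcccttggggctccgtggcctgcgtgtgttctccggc
Uqcr11: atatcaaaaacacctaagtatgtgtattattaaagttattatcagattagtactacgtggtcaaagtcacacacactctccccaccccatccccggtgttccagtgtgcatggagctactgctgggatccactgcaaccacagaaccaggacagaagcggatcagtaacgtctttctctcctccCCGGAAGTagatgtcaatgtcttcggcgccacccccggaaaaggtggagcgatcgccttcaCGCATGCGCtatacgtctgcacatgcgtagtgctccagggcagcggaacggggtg
Sdhd: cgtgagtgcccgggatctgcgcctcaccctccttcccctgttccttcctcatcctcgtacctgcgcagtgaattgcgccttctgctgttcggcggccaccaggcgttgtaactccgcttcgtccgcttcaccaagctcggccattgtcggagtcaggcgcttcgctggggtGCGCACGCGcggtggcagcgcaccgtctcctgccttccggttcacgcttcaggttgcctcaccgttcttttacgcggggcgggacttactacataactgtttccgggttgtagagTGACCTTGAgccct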

How the data were processed

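RNA of 15 libraries was sequenced after preparation with a kit for stranded mRNA libraries (per the labels' protocols). The authors used STAR 2.7.8a and RSEM 1.3.0 with GRCm39, per the submitters' processing notes. Neither the release of the annotation nor how strand was used is given in the sources used here. Each deposited file holds RSEM expected counts per gene and TPM, both made by the authors. Symbols were joined by Ensembl ID from a table of an older build, which named 52029 of 56953 IDs (91.4%).

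After rounding, the expected counts entered edgeR 4.0.16, run in R 4.3.3 (filterByExpr, minimum count 10, minimum total 15; TMM; robust quasi-likelihood, 1 mean per group over 15 libraries). Benjamini-Hochberg adjustment ran over 17975 genes, with calls under 0.05, and 102 of 107 members were tested (not Cox4i2, Cox7b2, Cox8b, Cox8c and the Atp5o identifier without a count). The biological coefficient of variation was 50.9%. Fold changes are log2 ± SE. CPM are TMM-scaled, and centred log2 CPM used a prior count of 2. Totals of 51.7 to 155.4 M (megacounts) per library set the precision. Alternatives were RLE and upper-quartile factors, no scaling, DESeq2 1.42.0, other count filters (none, or 1 CPM in 3 libraries), only the groups compared, limma 3.58.1 on log2(TPM + 1), a covariate of other-cell markers, mtDNA genes removed, and each library left out. Adding nuclear copies to their mtDNA genes, leaving out both libraries of high mtDNA share, and leaving out libraries from the levels were chosen after seeing the data.

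The members and lists were chosen with earlier results of these data known. Genes named were all mtDNA and Sdh genes, all called members, the highest and lowest of each complex, the isoforms, Cyc1, Cycs, Ppargc1a, Tfam and Esrra, and up to 3 called genes of each other list. Ndufb4, Cox7a2l, Atp5o, Atp5s, Ndufaf5, Ndufaf8, Uqcrc1, Uqcr11, Atp5a1, Atp5c1, Atp5e, Atp5g2, Uqcr10, Ndufa1 and any further called genes of lists were added after their values were seen.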

Additional observations from a re-analysis of the deposited data

Results flagged for a closer look

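In 99 groups of 4 libraries, 22 values lay farther from the rest of their group than Dixon's 95% limit, which chance passes in about 1 in 20 groups, and genes of 1 library are not independent. The 13 mtDNA genes held 10.6% of the count in WT mineral oil replicate 1 (3.10% to 3.33% in the other 3) and 15.8% in ΔEGFR mineral oil replicate 1 (2.01% to 4.31%), or 14.9% and 22.3% with their nuclear copies. The ratio of mitochondrial to nuclear members was 17.5 and 24 in these 2 libraries, against 3.96 to 4.25 and 2.17 to 4.89. mt-Rnr1 and mt-Rnr2 held 1.20% in WT mineral oil replicate 1.

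In WT mineral oil replicate 1 the levels of mt-Nd1 (11700 TPM), mt-Nd2 (17200), mt-Nd4 (14700), mt-Nd5 (9180), mt-Nd6 (1760), mt-Cytb (19800), mt-Co1 (35400) and mt-Atp8 (74600, against 22600 to 25400 in the other 3) stood apart. In ΔEGFR mineral oil replicate 1 it was mt-Nd1 (16900 TPM), mt-Nd3 (755, against 151 to 172) and mt-Co3 (4260, against 548 to 1110). Nuclear members were low in WT mineral oil replicate 1, with 184 TPM per subunit in complex III (266 to 277 in the others) and 75.7 TPM for Ndufb5 (112 to 118). Cox7a2 reached 321 TPM in ΔEGFR CCl4 replicate 1 (230 to 242 in the others), and Cox6b2 13.03 TPM in WT mineral oil replicate 3 (0.98 to 2.47).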

How the results depend on the processing

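No paired analysis was possible because the labels give no replicate number and nothing that links libraries across groups. For CCl4 in WT, the count of members called was 4, and 6 with RLE factors, 2 with upper-quartile factors, 0 without scaling, 16 with DESeq2, 0 without a low-count filter, 8 with a filter of 1 CPM in 3 libraries, 0 in a fit of only the groups compared, 1 (Cox6a2, higher) with limma on log2(TPM + 1), 0 with the other-cell covariate, 45 without both libraries of high mtDNA share, and 0 to 51 over left-out libraries. For CCl4 in ΔEGFR it was 0, and 9 with DESeq2, 1 (higher) with limma, 5 without both libraries and 0 to 14 over left-out libraries. Genotype and interaction counts were 0 in every alternative run. The nuclear median in WT was 0.05 without scaling, 0.13 with limma and −0.10 with the covariate (−0.54 to −0.26 over left-out libraries), and in ΔEGFR 0.08, 0.16 and −0.13 (−0.45 to −0.29). The mtDNA median lay between −1.31 and −0.49 (WT) and between −1.55 and −0.13 (ΔEGFR) over left-out libraries, and was −0.11 in ΔEGFR without both libraries and −1.52 and −1.71 with the covariate. In ΔEGFR without both libraries mt-Nd1 was 0.05, mt-Nd3 0.19 and mt-Nd6 0.12, and over left-out libraries they reached 0.02, 0.16 and 0.09 (lowest −1.41, −1.48 and −1). With limma in ΔEGFR mt-Nd6 was 0.13, Ndufs3 0.07, Ndufb3 0.11, Cox7a2 0.24, Sdhb 0.08, Sdhc 0.17 and Sdhd 0.25, and in WT Sdhc 0.16 and Sdhd 0.14. Without scaling in ΔEGFR Ndufb3 was 0.04, Cox7a2 0.18, Sdhc 0.04 and Sdhd 0.15, and in WT Sdhc 0.06 and Sdhd 0.07. Cox6b2 ran from −1.47 to 2.38 in WT over left-out libraries and was 0.19 in ΔEGFR with the covariate. The causes were not tested. The log2 ratio of CCl4 to mineral oil shares of TPM changed sign in some alternatives, with left-out libraries chosen after seeing the data. For nuclear members it was 0.09 in WT (−0.02 as a share of counts, −0.03 to 0.16 over left-out libraries) and 0.13 in ΔEGFR (0.05, −0.02 to 0.23), and for mtDNA genes −0.53 (−0.67, −0.83 to 0.03) and −0.50 (−0.73, −0.77 to 0.27).

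The number of libraries and the spread between them limit these tests. Counts are few for the isoforms at 0 to a few TPM. Depth is uneven over the groups, and what it limits beyond these isoforms was not tested.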
